A study of Mus musculus with 6 samples.

Results

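Red cell transcripts were followed in mouse embryonic hearts (day 11.5) through 9 genes: the embryonic globins Hba-x, Hbb-bh1 and Hbb-y, the adult-type globin Hba-a1, the haem enzyme gene Alas2, the transcription factor genes Gata1 and Klf1, and the membrane protein genes Rhag and Slc4a1. Every probe that the platform table assigns to these genes was read, which gave 10 probes, 2 of them for Hbb-bh1, among 21676 probes with 1 listed gene. Biotin-labelled RNA was hybridised to 6 single-colour CodeLink arrays. The mutant group, 3 arrays, came from hearts in which Dicer was inactivated by Cre recombinase inserted at Nkx2.5, a gene active in cardiac progenitors, and the control group, 3 arrays, came from hearts labelled only as controls, with no genotype stated. Whether replicate arrays came from different embryos is not stated in the labels, so p-values here reflect array-to-array spread alone, which may be technical.

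A heart taken from an embryo holds blood as well as muscle, endocardium and cushion. In the mouse embryo at this stage most circulating red cells are primitive erythroblasts made in the yolk sac, which keep their nuclei and RNA while they circulate and carry the embryonic globins. Definitive red cells, which carry the adult globins, are made later in the fetal liver. Gata1 and Klf1 switch on globin, haem and membrane genes in these cells. In RNA from a whole heart, fewer red cells and less RNA per red cell cannot be told apart.

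The arrays were comparable in signal, with 74.1% to 78.2% of 36227 spots above background and between 184 and 263 spots saturated per array. Dicer1, the inactivated gene, had log2 normalized intensities of 6.71, 6.73 and 6.70 on the mutant arrays and 7.82, 7.64 and 7.71 on the control arrays. The groups did not overlap, and the log2 difference was -1.02 ± 0.09 (SE, limma adjusted p = 0.0402). Whether this probe falls inside the deleted exons was not known. The tissue label was borne out by heart muscle genes: Myl7 and Actc1, an atrial myosin light chain and cardiac actin, were saturated on all 6 arrays. All 10 cardiomyocyte markers with a listed probe passed the filter on dim probes. Among them the myosin gene Myh6 and the calcium channel gene Ryr2 were dim, with mean log2 intensities of 6.39 and 6.59.

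The embryonic globins were among the few genes that exceeded the range of the scanner. Their 4 probes were flagged saturated on every one of the 6 arrays, a state reached by 18 of the listed probes in all. Hba-x, the zeta globin of embryonic haemoglobin, had spot means of 34229, 31350 and 29236 intensity units on mutant arrays 1 to 3 and 34594, 31372 and 30906 on control arrays 1 to 3. Hbb-y, the epsilon-type globin, had 31446, 32136 and 34177 on the mutant arrays and 34012, 38778 and 33100 on the control arrays. These values are clipped and give no order of the arrays.

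Hbb-bh1, the beta-h1 globin, had 37894, 37999 and 37437 on the mutant arrays and 44894, 34598 and 33119 on the control arrays at its first probe. Its other probe gave 35384, 36312 and 34536 on the mutant arrays and 39558, 34777 and 32824 on the control arrays. On control 1 the median pixel of the first probe's spot read 65535, while the spot mean was 44894. A saturated spot gives only a lower bound on its RNA, and since both groups were saturated no fold change is given for these 3 genes. Over the 24 saturated spots the means ran from 29236 to 44894 units. In the authors' table of values these spots were blank, so that the embryonic globins have no value there on any array.

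Hba-a1, an adult-type alpha globin, was bright but never saturated, and it varied little by spot mean. Its log2 intensities were 13.68, 13.46 and 13.74 on the mutant arrays and 13.53, 13.68 and 13.93 on the control arrays. The groups overlapped, with control 1 below mutants 1 and 3, and the log2 difference was -0.09 ± 0.14 (SE, limma adjusted p = 0.863). On the authors' own scale the order differed: 159, 146 and 177 units on the mutant arrays lay just below 179, 180 and 181 on the control arrays. The difference also turned positive, at 0.02 and 0.05, in 2 of the alternative fits. The median pixel of the Hba-a1 spots read 7184, 3512 and 7451 on the mutant arrays and 6713, 3776 and 4767 on the control arrays. Each lay below the mean of its spot, and the medians spread more widely than the means. The flat level thus holds for spot means only. Hba-a2 is a near-identical copy of Hba-a1, so the signal cannot be assigned to either gene alone. Which type of red cell gave the signal was not tested.

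**Figure D1:**
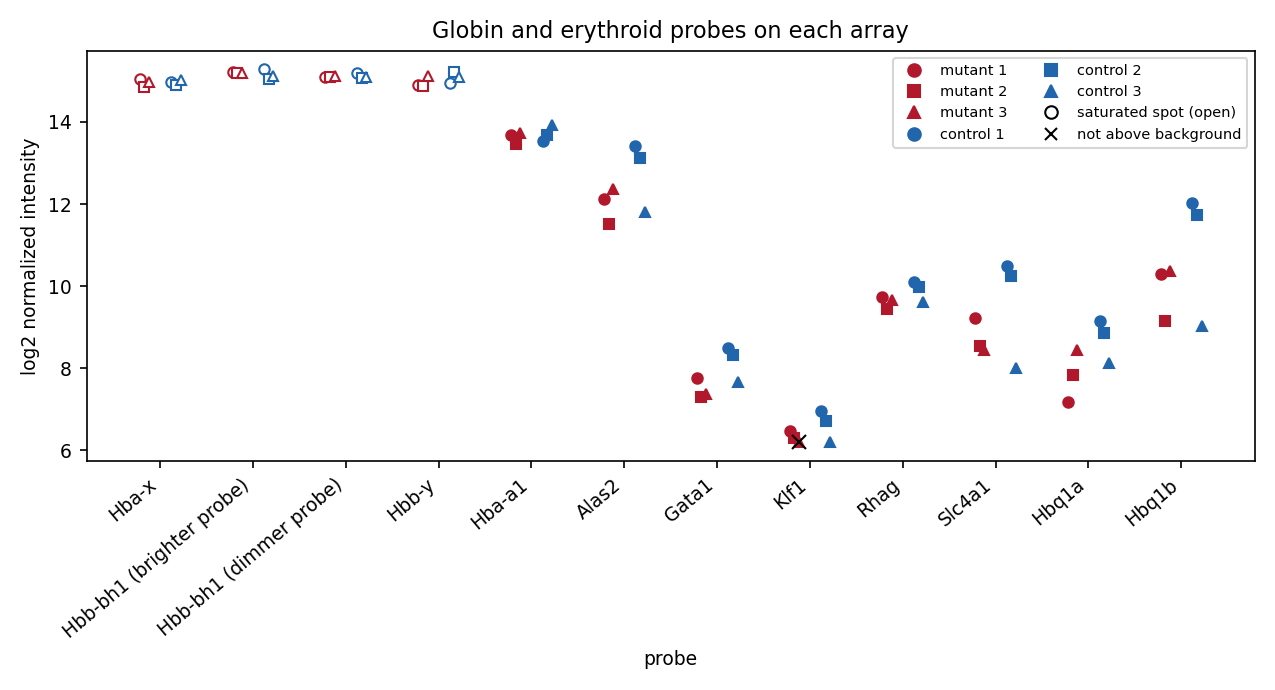
Log2 normalized intensity (y axis) of the 10 probes of the 9 genes and of the theta globins Hbq1a and Hbq1b (x axis). Each point is 1 array, mutant red and left, control blue and right; open symbols are saturated spots and a cross marks a spot not above background. The 4 embryonic globin probes are open on all 6 arrays, while Alas2, Gata1, Rhag and Slc4a1 place controls 1 and 2 above the other arrays.

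Alas2, the erythroid enzyme that begins haem synthesis, varied widely within the control group. Its log2 intensities were 12.13, 11.51 and 12.36 on the mutant arrays and 13.41, 13.11 and 11.81 on the control arrays. Controls 1 and 2 were above every mutant array, while control 3 was below mutants 1 and 3. The place of control 2 depended on the use of spot means. The median pixel of the Alas2 spots read 6006, 4066 and 6017 on the mutant arrays and 10917, 3815 and 3704 on the control arrays. By that measure, before normalization, control 2 lay below every mutant array. All fits used spot means. The log2 difference was -0.78 ± 0.43 (SE), or 0.583 of the control level with a 95% interval of 0.285 to 1.20 (limma adjusted p = 0.591).

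The transcription factor genes also had controls 1 and 2 as their highest arrays. Gata1 gave 7.77, 7.29 and 7.37 on the mutant arrays and 8.49, 8.32 and 7.67 on the control arrays. Mutant 1 lay above control 3, so the groups overlapped. Its log2 difference was -0.68 ± 0.24 (SE), or 0.623 of the control level with a 95% interval of 0.419 to 0.925, with an unadjusted p of 0.0257 and an adjusted p of 0.413 in limma's test. Klf1, the erythroid Krüppel-like factor, gave 6.49, 6.31 and 6.20 on the mutant arrays and 6.97, 6.73 and 6.21 on the control arrays. It was above background on 5 of 6 arrays, mutant 3 being the exception, and its log2 difference was -0.30 ± 0.20 (SE, limma adjusted p = 0.640).

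The membrane protein genes differed in how far they moved between arrays. Rhag, which encodes the Rh-associated glycoprotein, gave 9.73, 9.45 and 9.66 on the mutant arrays and 10.09, 9.98 and 9.61 on the control arrays. Its log2 difference was -0.28 ± 0.15 (SE, limma adjusted p = 0.587). Slc4a1, the band 3 anion exchanger, gave 9.23, 8.54 and 8.45 on the mutant arrays and 10.49, 10.25 and 8.0 on the control arrays. Its highest and its lowest value were thus both controls. The log2 difference of Slc4a1 was -0.84 ± 0.65 (SE), or 0.558 of the control level with a 95% interval of 0.192 to 1.62 (limma adjusted p = 0.678).

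Of the 6 genes that were never saturated, 0 passed limma's test at an adjusted p under 0.05, where 0.0455% of the 17589 probes tested passed in either direction, 0.0284% higher and 0.0171% lower in the mutant. At an unadjusted p under 0.05 there was 1 of the 6, Gata1, which was lower, against 9.86% of all probes in either direction and 3.26% lower. The groups overlapped for all 6, whereas they did not overlap for 14.8% of all probes, 5.52% with the mutant lower. Each of the 6 log2 differences was below 0, with a median of -0.49, while 47.8% of all probes tested were below 0. Over all genes tested, each by its brightest probe, 48.5% were below 0 and the median was 0.01. The median of the 6 genes was -0.28 without control 1 and -0.72 without control 3.

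The spread within the control group was the larger one for these genes. The SD of Slc4a1 was 0.43 over the mutant arrays and 1.38 over the control arrays (log2, n = 3 each), and that of Alas2 was 0.44 and 0.85. Between its lowest and highest array Slc4a1 differed 5.63-fold, Alas2 3.74-fold, Gata1 2.30-fold, Klf1 1.70-fold and Rhag 1.56-fold on the normalized scale, and Hba-a1 1.38-fold. Across the 6 arrays the 10 pairs among Alas2, Gata1, Klf1, Rhag and Slc4a1 had Pearson correlations of 0.863 to 0.980, and the 5 pairs with Hba-a1 had -0.473 to -0.123. The arrays were normalized together, and the correlations are given as a description.

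**Figure D2:**
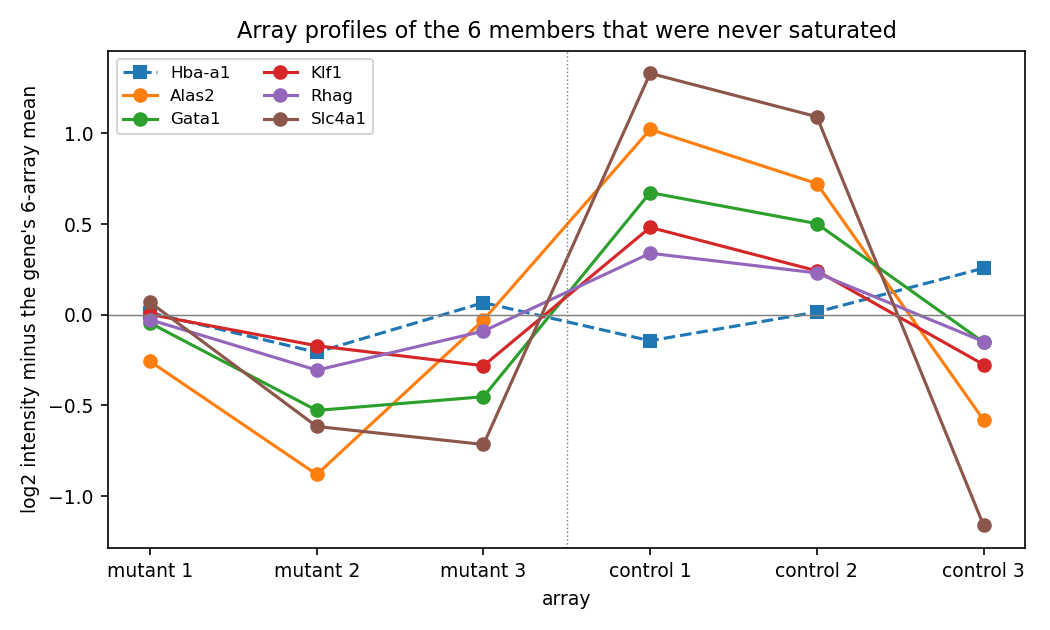
Log2 intensity of each never-saturated gene minus its mean over the 6 arrays (y axis) by array (x axis); lines only join the points of 1 gene. Alas2, Gata1, Klf1, Rhag and Slc4a1 are highest on controls 1 and 2, and Hba-a1 (dashed) is highest on control 3.

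The calls among these genes changed without control 3. Without it, limma called 1 of the 6, Slc4a1, lower in the mutant, at a log2 difference of -1.63, where 2.15% of all probes passed, with 1.32% lower in the mutant. At an unadjusted p under 0.05, 5 of the 6 were lower, all but Hba-a1, against 10.1% of all probes. Without any other single array 0 of the 6 passed. The start of the array titles, read here as a slide, placed mutants 1 and 2 and control 1 together. With it as a block, the fit rests on those 3 arrays, with control 1 as the only control. The log2 differences of Alas2 and Slc4a1 were then -1.59 and -1.61. The labels do not state the slide.

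The promoters of these genes were set beside those of globins. Windows of 250 bases before the transcript start were taken from RefSeq (GRCm38.p6), which held them for 7 of the 9 genes. They are written 5′ to 3′ on the strand of the gene. Capitals mark GATAA, the core letters that Gata1 binds, and CACCC, the letters of the box that Klf1 binds, on either strand (TTATC and GGGTG on the other).
Alas2, chrX:150547167-150547416, plus strand: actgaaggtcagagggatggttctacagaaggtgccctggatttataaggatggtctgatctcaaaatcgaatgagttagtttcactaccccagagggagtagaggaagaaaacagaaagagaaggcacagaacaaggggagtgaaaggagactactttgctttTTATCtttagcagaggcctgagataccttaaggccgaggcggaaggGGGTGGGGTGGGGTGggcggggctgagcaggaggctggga
Klf1, chr8:84901732-84901981, plus strand: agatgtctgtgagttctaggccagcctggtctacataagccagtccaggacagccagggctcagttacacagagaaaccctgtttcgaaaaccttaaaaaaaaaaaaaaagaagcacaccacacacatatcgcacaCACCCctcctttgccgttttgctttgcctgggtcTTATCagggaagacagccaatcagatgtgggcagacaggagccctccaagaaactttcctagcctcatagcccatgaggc
Rhag, chr17:40810899-40811148, plus strand: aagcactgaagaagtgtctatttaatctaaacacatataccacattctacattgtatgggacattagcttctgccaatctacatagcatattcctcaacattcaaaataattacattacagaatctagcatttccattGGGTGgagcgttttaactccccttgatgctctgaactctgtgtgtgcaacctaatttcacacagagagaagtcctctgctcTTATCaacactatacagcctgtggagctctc
Hba-x, chr11:32276350-32276599, plus strand: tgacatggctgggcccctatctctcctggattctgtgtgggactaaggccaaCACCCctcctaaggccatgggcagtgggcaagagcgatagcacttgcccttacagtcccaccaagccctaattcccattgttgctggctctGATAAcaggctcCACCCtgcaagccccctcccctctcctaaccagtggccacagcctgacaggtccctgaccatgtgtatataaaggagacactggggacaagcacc
Hbb-y, chr7:103853208-103853457, minus strand: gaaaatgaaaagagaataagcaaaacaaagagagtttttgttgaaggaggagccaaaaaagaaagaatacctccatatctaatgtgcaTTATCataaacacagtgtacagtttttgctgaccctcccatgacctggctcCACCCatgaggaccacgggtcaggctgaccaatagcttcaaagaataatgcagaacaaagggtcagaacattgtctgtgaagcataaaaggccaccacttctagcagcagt
Hba-a1, chr11:32283422-32283671, plus strand: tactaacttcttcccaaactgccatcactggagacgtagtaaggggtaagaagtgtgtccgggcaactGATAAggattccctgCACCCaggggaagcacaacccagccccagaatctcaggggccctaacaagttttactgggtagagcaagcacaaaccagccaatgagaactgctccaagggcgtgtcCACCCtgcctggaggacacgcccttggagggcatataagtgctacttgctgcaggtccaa
GATAA was present in 6 of the 7 windows, all but that of Gata1, and CACCC in all 7. Of 32817 windows of this length, 22.6% held GATAA, 52% held CACCC and 10.1% held both. The Alas2 window holds 3 copies of GGGTG placed end to end. The window of Hba-a1, whose level was nearly flat by spot mean, holds 1 GATAA and 2 CACCC. A match of letters is a description and not evidence of binding.

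The remaining globins on the array were the theta genes Hbq1a and Hbq1b, which stand beside the alpha globins on chromosome 11, in the order Hba-x, Hba-a1, Hbq1b, Hba-a2, Hbq1a. Hbq1b gave log2 intensities of 10.31, 9.16 and 10.37 on the mutant arrays and 12.03, 11.75 and 9.02 on the control arrays. Controls 1 and 2 were again the highest, and control 3 was the lowest of all 6. The log2 difference was -0.99 ± 0.80 (SE, limma adjusted p = 0.701). Hbq1a gave 7.18, 7.84 and 8.45 on the mutant arrays and 9.16, 8.87 and 8.13 on the control arrays, a log2 difference of -0.90 ± 0.38 (SE, limma adjusted p = 0.506). For Hbq1a mutant 1 was the lowest array.

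Other genes of the red cell programme were read from 5 lists, of which 46 genes were tested. None passed limma's test in either direction, and 6 had an unadjusted p under 0.05, all of them lower in the mutant. Of the 46, 38 lay below 0, with a median log2 difference of -0.51. Over all probes, 0.0455% passed and 47.8% lay below 0. An unadjusted p under 0.05 was found for 9.86% of all probes in either direction and for 3.26% lower in the mutant. The median of the 46 was -0.22 without control 1 and -0.84 without control 3. Without control 3, limma called 3 of the 46 lower, against 1.32% of all probes, and with the title start as a block 13, against 5.91%. Controls 1 and 2 were the highest pair of arrays in 32 of the 46 genes (69.6%), against 15% of all genes tested. This pair was picked after the values were seen, here and for the other lists, so its counts are a description.

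Haem synthesis and iron uptake genes lay below 0 in 11 of 12, with a median of -0.59. Slc25a37, the mitochondrial iron importer mitoferrin, gave 10.94, 9.84 and 9.90 on the mutant arrays and 11.78, 11.58 and 10.03 on the control arrays. Here control 3 lay within the mutant range. The genes with the smallest p on this list were Abcg2, a porphyrin transporter, at -0.36 ± 0.13 (log2 difference ± SE), and the mitochondrial transporter gene Abcb10, at -1.08 ± 0.47, with limma adjusted p of 0.419 and 0.518. Membrane and skeleton genes lay below 0 in 9 of 12, with a median of -0.57. Ank1, the ankyrin that ties band 3 to spectrin, gave 8.37, 7.96 and 8.12 on the mutant arrays and 9.61, 9.48 and 8.62 on the control arrays. It was the only 1 of the 12 genes of this list whose mutant arrays all lay below the control arrays. The same held for 4 of the 46 genes of the 5 lists, and for 5.52% of all probes. The log2 difference of Ank1 was -1.09 ± 0.27 (SE), with a limma adjusted p of 0.252, the lowest of the 46. Add2, an adducin, gave -0.53 ± 0.29 (adjusted p = 0.589).

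Red cell enzymes, receptors and chaperones lay below 0 in all 10 tested, with a median of -0.52. Tspo2, an erythroid translocator protein, gave -1.23 ± 0.42 and Blvrb, a biliverdin reductase, -0.68 ± 0.39 (log2 difference ± SE), with limma adjusted p of 0.394 and 0.598. Hemgn, a nuclear protein of erythroblasts, spread widely in both groups, with 9.18, 6.52 and 6.75 on the mutant arrays and 10.01, 9.48 and 6.40 on the control arrays. Erythroid transcription factors as a list moved least, with 6 of 10 below 0 and a median of -0.04. Lmo2, a bridging factor of the Gata1 complex, gave -0.31 ± 0.11, and Lyl1, a relative of Tal1, gave -0.39 ± 0.15, with limma adjusted p of 0.414 and 0.466. Nfe2, which activates globin genes, gave 8.38, 7.88 and 7.65 on the mutant arrays and 9.62, 9.37 and 7.32 on the control arrays, whereas Tal1 gave 11.98, 11.89 and 12.15 on the mutant arrays and 11.90, 12.17 and 11.67 on the control arrays. Slc25a37, Hemgn, Nfe2 and Tal1 were chosen as examples after their values were seen.

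**Figure D3:**
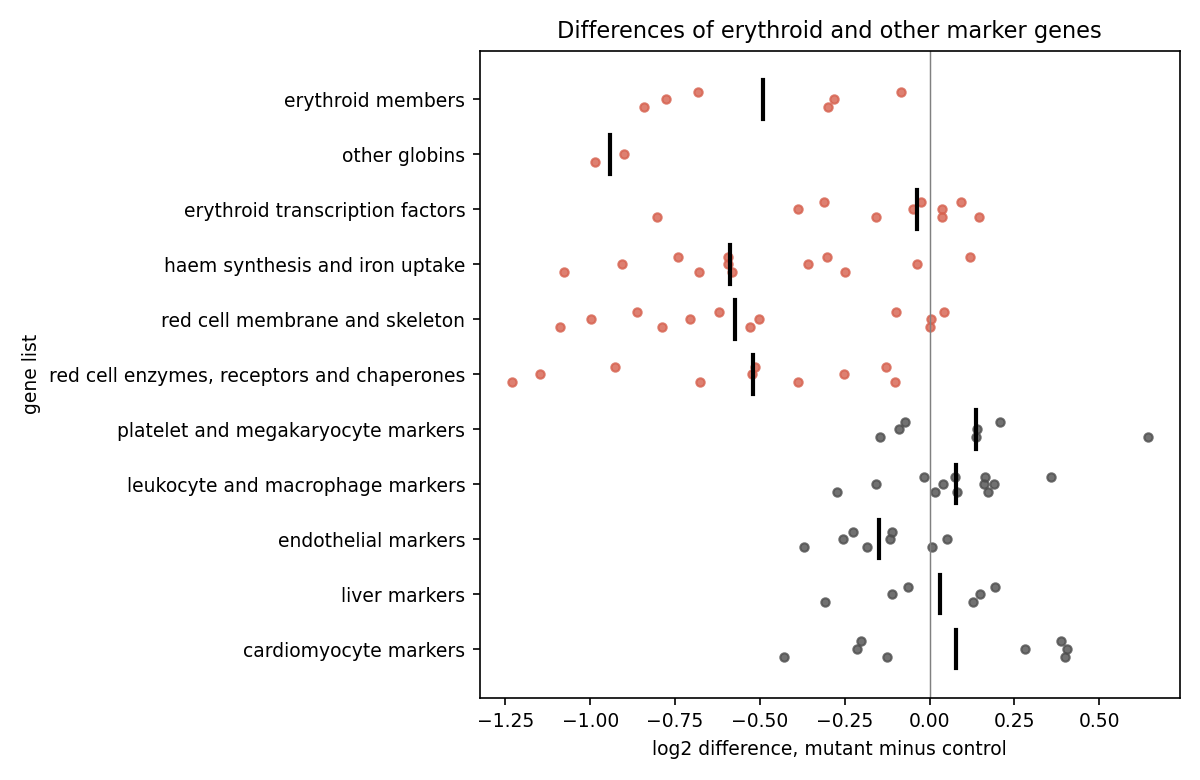
Log2 difference, mutant minus control (x axis), of each tested gene of 11 lists (y axis). Each point is 1 gene, and black bars are list medians. Genes saturated on every array of a group were left out, and those saturated on fewer arrays were kept. Medians of the erythroid lists lie between -0.94 and -0.04, and those of the other marker lists between -0.15 and 0.14.

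Markers of other blood cells had list medians near 0. The 7 tested platelet and megakaryocyte markers had a median difference of 0.14, and Ppbp, a platelet chemokine, gave 0.64 ± 0.34 and Gp9, a platelet glycoprotein, 0.21 ± 0.17 (log2 difference ± SE). Controls 1 and 2 were the highest pair in 2 of these 7 markers (28.6%), against 15% of all genes. Itgb3, an integrin of platelets, was 1 of them, with 10.43, 10.41 and 10.67 on the mutant arrays and 10.85, 10.83 and 10.27 on the control arrays. The 12 tested leukocyte and macrophage markers had a median of 0.08, with Cd14, a receptor of monocytes, at 0.36 ± 0.19 and Spi1, the myeloid factor PU.1, at -0.16 ± 0.09. Spi1 was the 1 leukocyte marker of 12 (8.33%) with controls 1 and 2 as its highest pair. Summed over the leukocyte list, the authors' normalized intensity ran from 28.2 to 43.2 over the mutant arrays and from 25.2 to 49.7 over the control arrays, lowest on control 1 and highest on control 3. The liver list, of the organ that makes definitive red cells, had a median of 0.03 over 6 genes, with Apoa2 at 0.19 ± 0.09 and Trf, transferrin, at -0.31 ± 0.22. The sum of the liver list ran from 26.2 to 27.1 over the mutant arrays and from 23.0 to 38.3 over the control arrays. Trf was the brightest gene of this list, with log2 intensities of 11.24, 11.20 and 10.42 on the control arrays. The list's median of log2 intensity, centred for each gene, was 0.06, 0.05 and -0.07 on the mutant arrays and -0.11, 0.05 and -0.01 on the control arrays. The endothelial list had a median of -0.15 over 8 genes, with Cd34 at -0.37 ± 0.11 and Esam, a junction protein, at -0.25 ± 0.11. Of the 8, 6 lay below 0, against 47.8% of all probes. In 4 of the 8 every mutant array lay below every control array, against 5.52% of all probes. None of the genes of these 4 lists passed limma's test, and those named had adjusted p from 0.330 to 0.811.

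The 8 cardiomyocyte markers read here were those not saturated on every array of either group. Of these, 4 lay below 0 and 4 above, with a median log2 difference of 0.08. Tnni1 was saturated on 3 arrays and Myl2 on 1, and these clipped spots kept their values. The list's median of centred log2 intensity was 0.04, 0.16 and -0.06 on the mutant arrays and -0.36, -0.19 and 0.47 on the control arrays. On the same scale the 6 erythroid genes had -0.01, -0.42 and -0.19 on the mutant arrays and 0.58, 0.37 and -0.21 on the control arrays. Controls 1 and 2, the highest pair for red cell genes, were the lowest pair in 4 of 8 cardiomyocyte markers (50%), against 18.1% of all genes, and the highest pair in 1, the calcium channel gene Ryr2. The summed authors' normalized intensity of the cardiomyocyte list ran from 1053 to 1319 over the mutant arrays and from 867 to 1265 over the control arrays. Tnni3 and Tnnt2, the cardiac troponins I and T, gave 0.40 ± 0.15 and 0.40 ± 0.20 (log2 difference ± SE, limma adjusted p = 0.438 and 0.564). Myh7, a myosin heavy chain, gave -0.43 ± 0.39, Nkx2-5 -0.21 ± 0.23, Myl2 -0.20 ± 0.25 and Ryr2 -0.13 ± 0.09, with adjusted p from 0.657 to 0.817. Itgb3 and these 4 genes were named after their values were seen. Nkx2-5 is also the gene at which Cre was inserted in the mutant group. An effect of that insertion on its level cannot be told apart from muscle content. The part of muscle content in the red cell values was not tested.

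**Figure D4:**
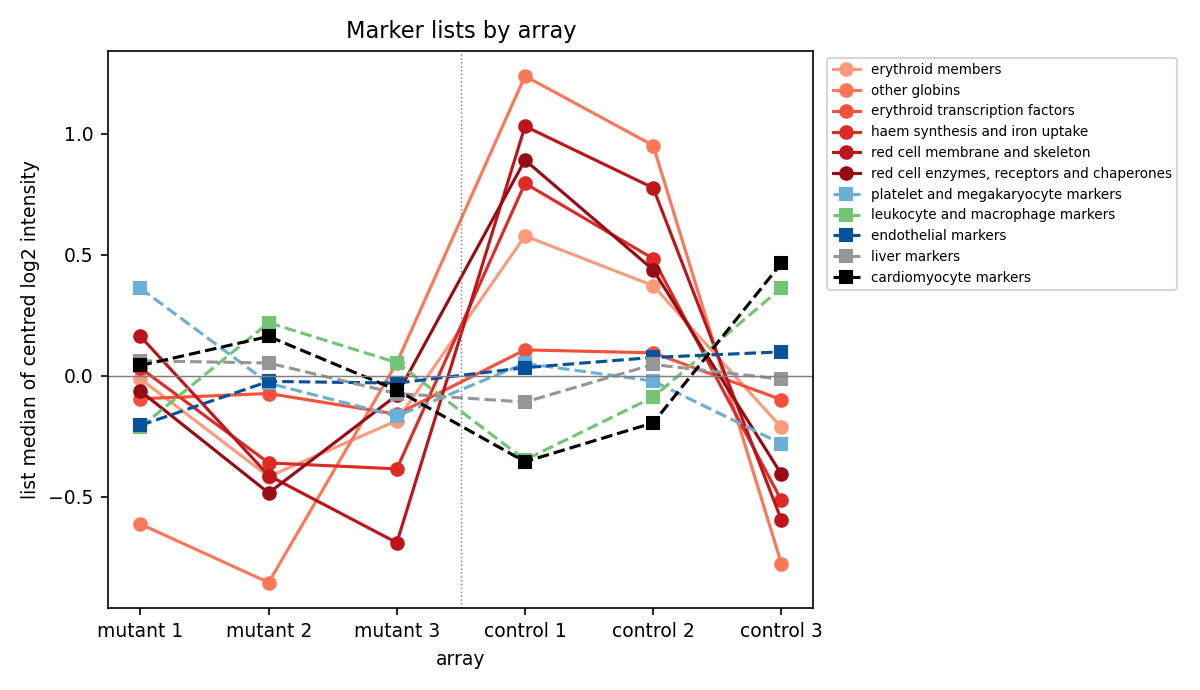
Median centred log2 intensity of each marker list (y axis) by array (x axis); lines only join the points of 1 list, erythroid lists solid red and other lists dashed. On controls 1 and 2 the erythroid lists lie above 0 (0.09 to 1.24) and the cardiomyocyte list below 0 (-0.36 and -0.19).

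The profile of the red cell genes was set beside the main variation of the other probes. Genes of the globin and erythroid lists were left out, while any red cell genes outside these lists stayed in. A principal component analysis of the 17497 probes kept placed 53.8% of the variance on its first component. Its scores were -18.8, -29.8 and 6.65 on mutants 1 to 3 and 36.4, 25.8 and -20.2 on controls 1 to 3. The mean centred log2 intensity of the 6 erythroid genes was -0.04, -0.45 and -0.25 on the mutant arrays and 0.62, 0.47 and -0.34 on the control arrays. Both measures were highest on control 1 and then control 2, and lowest on mutant 2, while mutants 1 and 3 changed places between them.

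**Figure D5:**
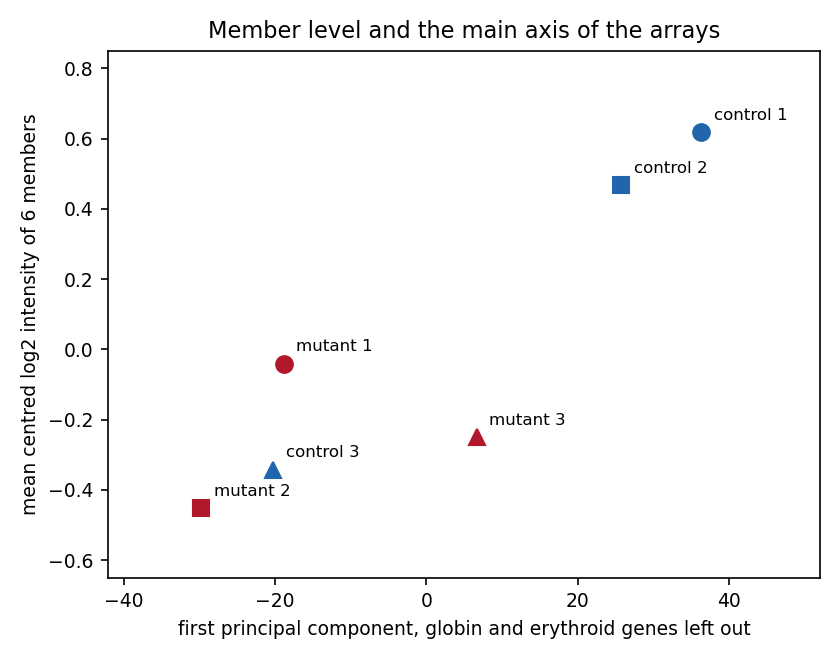
Mean centred log2 intensity of the 6 never-saturated genes (y axis) against the first principal component of tested probes outside the globin and erythroid lists (x axis, 53.8% of variance), 1 point per array. Controls 1 and 2 lie at the upper right, and control 3 lies among the mutants at the lower left.

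Some genes outside the erythroid lists tracked the same profile. Among 3172 such genes with an SD of at least 0.3 over the arrays, 460 (14.5%) had a Pearson correlation of at least 0.9 with the mean of the 6 erythroid genes, compared with 19 of 29 genes (65.5%) of the erythroid lists. The threshold of 0.9 was chosen after the values were seen. The 8 closest, over 6 arrays, were Six3, Obsl1, C2cd2l, Rorb, Csn1s1, Otub1, an immunoglobulin kappa variable gene and Cabp4, with correlations from 0.994 to 0.998. Six3, a homeobox factor of the forebrain and eye, gave 11.36, 10.67 and 11.04 on the mutant arrays and 12.35, 12.23 and 10.93 on the control arrays. Otub1, a deubiquitinating enzyme, gave 10.92, 10.20 and 10.71 on the mutant arrays and 12.23, 12.08 and 10.45 on the control arrays. Csn1s1, a milk casein, gave 6.89, 6.58 and 6.76 on the mutant arrays and 7.62, 7.52 and 6.63 on the control arrays. With 6 arrays and this many genes, close correlations are a description of these arrays and say nothing of shared function.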

How the data were processed

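Per the file headers, the authors deposited for each array the mean and median pixel intensity of every spot, the median of its local background, the subtracted intensity and a normalized intensity, with a letter flag. Checked on the values, the normalized intensity was the subtracted intensity divided by 1 constant per array (66.1 to 82.8), and the authors' value table held it for spots flagged good. Flags with S were read as saturated and flags with L or M as not above background, since the files do not define the letters. The labels used here name no scanner or software.

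Spot means were corrected with normexp (offset 50), log2-transformed and quantile-normalized across all spots in limma 3.58.1 (R 4.3.3). Probes with 1 listed gene that were above background on at least 3 of 6 arrays were tested, 17589 probes of 15012 genes, by lmFit and eBayes, two-sided, with Benjamini-Hochberg adjustment over all of them. The brightest probe stands for a gene in lists. Log2 differences are mutant minus control. The pipeline was tested on simulated data. The number of arrays limits precision. Genes of each list named by rule were those that passed or else the 2 with the smallest p, and the closest genes were the 8 with the highest correlation. The members and lists were chosen with earlier results of these data known. Replicate numbers only name arrays. The arrays share a middle number in their titles across groups, but same-numbered arrays did not deviate together (correlations of -0.008, -0.479 and -0.395), so no pairing was used. List genes without a listed probe were not analysed here.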

Additional observations from a re-analysis of the deposited data

How the results depend on the processing

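The 6 never-saturated genes were refitted under 18 alternatives, all planned, which gave 107 values: 102 kept sign and call, 3 gained a call (Slc4a1 in 2 fits, Alas2 in 1) and 2, both of Hba-a1, changed sign without a call. Klf1 dropped out where a probe had to be above background on all 6 arrays. Taking the mean of several probes affected Hbb-bh1 alone, which was saturated, and was not run. Dicer1 stayed lower in all 18 alternatives and was called in 11 (adjusted p 0.0124 to 0.517). Of 359 values of other named erythroid and marker genes, 349 kept sign and call and 10 gained a call. The number of member probes called moved from 0 to 2 with the title start as a slide block, and lay between 0 and 1 with each array left out. The number of all probes called, 8 (5 higher, 3 lower), moved to 0 with the spot mean minus background (1616 at an unadjusted p under 0.05), 4 when the authors' normalized intensity was used (1 higher, 3 lower), 5 from the value table (2 higher, 3 lower) and 1877 (837 higher, 1040 lower) with the slide block. The replicate block by title number gave 0 (1293 unadjusted). Leaving out each array gave 0 to 379, the highest without control 3, 1 without mutant 3 and 0 without any other. The slide block uses 3 arrays, with control 1 as the only control, so the calls gained under it rest on 1 control array. The cause of the other shifts was not tested. Saturation limits the embryonic globins, and weak signal limits Klf1.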
